A study of Mus musculus with 2 samples.

Results

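The miR-99/100, let-7 and miR-125 microRNAs are encoded together in 3 mouse loci, each carrying 1 hairpin of each family in the same order, and this text describes their counts in the midbrain of newborn mice. Members were chosen by name. They are Mir99a, Mirlet7c-1 and Mir125b-2 on chromosome 16, Mir100, Mirlet7a-2 and Mir125b-1 on chromosome 9, and Mir99b, Gm25927 and Mir125a on chromosome 17, 9 of the 1973 genes in each deposited table. Gm25927 stands for let-7e, whose own gene, Mirlet7e, has no row in the tables. Gm25927 is annotated across the let-7e hairpin on the other strand, so its opposite-strand counts are the reads that lie in the direction of let-7e.

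The series holds 1 group, the midbrain of B6NCrl mouse pups on postnatal day 0, with 1 library each from pup 1 and pup 3. Each library was made from total RNA of a single midbrain with a size range under 30 bases, and sex was not collected. Both labels carry the same donor identifier while naming different pups, so the spread below is that between 2 pups as labelled, which may in part be technical. There is no other age, tissue or treatment, and the comparisons are between hairpins, between loci and between the pups.

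MicroRNAs are small RNAs that an enzyme pathway cuts from hairpin precursors and that guide the repression of messenger RNAs, chiefly through a short seed near their 5′ end. The grouping of miR-100, let-7 and miR-125 in 1 primary transcript is old and is also known from Drosophila melanogaster. In Caenorhabditis elegans, let-7 and lin-4, the relative of miR-125, were found as regulators of developmental timing. In the vertebrate brain let-7 and miR-125 are known to accumulate as neural progenitors differentiate, and both families repress Lin28, whose protein in turn blocks the maturation of let-7. The miR-99/100 family is known to repress Mtor, the kinase of growth control.

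Mature sequences show which of these hairpins a read can tell apart. All 9 hairpins, with Mirlet7e in place of Gm25927, had entries in the RefSeq table of GRCm38.p6, and 8 of them had a 5p entry of their own. The let-7a-5p sequence was taken from the entry of Mirlet7a-1 and is also present in the Mirlet7a-2 hairpin. The main (5p) products are shown first, 5′ to 3′, with the seed, bases 2 to 8, in capitals:
miR-99a-5p: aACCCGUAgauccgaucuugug
miR-100-5p: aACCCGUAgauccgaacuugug
miR-99b-5p: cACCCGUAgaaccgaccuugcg
let-7c-5p: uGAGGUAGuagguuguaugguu
let-7a-5p: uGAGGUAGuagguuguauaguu
let-7e-5p: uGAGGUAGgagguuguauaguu
miR-125b-5p: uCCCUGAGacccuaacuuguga
miR-125a-5p: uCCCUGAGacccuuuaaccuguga

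Each family has a single seed across the 3 loci, so the 9 hairpins give 8 distinct 5p sequences and 3 seeds. Positions are counted from 1 at the 5′ end. miR-99a-5p and miR-100-5p differ by U16A alone, and miR-99a-5p and miR-99b-5p differ by A1C, U11A, U16C and U21C. let-7c-5p and let-7a-5p differ by G19A, and let-7a-5p and let-7e-5p by U9G. miR-125b-5p and miR-125a-5p have their first 13 bases in common and then diverge.

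Among 2202 microRNA hairpins of the GENCODE M21 annotation, 4 of the 9 members have a 5p sequence that another hairpin also holds. Mirlet7c-1 shares let-7c-5p with Mirlet7c-2, Mirlet7a-2 shares let-7a-5p with Mirlet7a-1, and Mir125b-1 and Mir125b-2 share miR-125b-5p with each other. The 5p sequences of Mir99a, Mir100, Mir99b, let-7e and Mir125a lie in no other annotated hairpin. The 3p products of these 4 hairpins were each found in a single hairpin, and 3 of them are shown because they do tell the loci apart:
let-7c-1-3p: cUGUACAAccuucuagcuuucc
let-7a-2-3p: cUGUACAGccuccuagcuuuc
miR-125b-1-3p: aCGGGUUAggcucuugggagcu

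The miR-125b hairpins share the longest run, 24 bases, which is longer than the mature microRNA itself. Mirlet7c-1 and Mirlet7a-2 each share a run of 23 bases with their partner hairpin. The longest run that Mir99a and Mir100 share with any other annotated hairpin is 16 bases, with each other. It is 17 bases for Mirlet7e, 14 for Mir125a and 11 for Mir99b. In the deposited tables a read that maps to several places enters no gene, and such reads numbered 2111487 in pup 1 and 2937457 in pup 3. The values of Mirlet7c-1, Mirlet7a-2, Mir125b-1 and Mir125b-2 are therefore counts of the reads that mapped to these hairpins alone, and their true levels are uncertain.

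Gm25927 is shown with its let-7e partner because its name hides the microRNA. The whole of Mirlet7e, 93 bases, is the reverse complement of bases 16 to 108 of Gm25927. Capitals mark let-7e-5p in Mirlet7e and its reverse complement in Gm25927:
Mirlet7e: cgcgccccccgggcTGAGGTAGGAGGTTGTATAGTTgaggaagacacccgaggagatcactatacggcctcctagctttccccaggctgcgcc
Gm25927: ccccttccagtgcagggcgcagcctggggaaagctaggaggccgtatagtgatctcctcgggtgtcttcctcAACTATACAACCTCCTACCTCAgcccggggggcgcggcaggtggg

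On GRCm38, the assembly also called mm10, the chromosome 16 locus spans 47408 bases on the plus strand. Mir99a (ENSMUSG00000065530.1) lies at 77598936 to 77599000, Mirlet7c-1 (ENSMUSG00000065557.2) at 77599657 to 77599750 and Mir125b-2 (ENSMUSG00000065472.1) at 77646273 to 77646343. All of them sit in introns of the noncoding host gene Mir99ahg, the first and second also opposite an intron of the protein-coding gene Gm11146, with 656 bases between the first and second hairpins and 46522 between the second and the last. The chromosome 9 locus spans 50578 bases on the plus strand. Mir100 (ENSMUSG00000093011.1) lies at 41531425 to 41531504, Mirlet7a-2 (ENSMUSG00000092770.1) at 41536716 to 41536811 and Mir125b-1 (ENSMUSG00000093354.1) at 41581926 to 41582002. These hairpins lie in introns of the noncoding genes 3110039I08Rik and Gm49317, and Mir125b-1 also lies in an exon of the sense-intronic gene Gm28119. Mir100 lies opposite an exon of the noncoding gene Gm48742.

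The chromosome 17 locus is compact, with 692 bases from the start of Mir99b to the end of Mir125a. Mir99b (ENSMUSG00000065396.1) lies at 17830188 to 17830257 and Mir125a (ENSMUSG00000065479.1) at 17830812 to 17830879, both on the plus strand. Between them lie Mirlet7e at 17830352 to 17830444 on the plus strand and Gm25927 (ENSMUSG00000092799.1) at 17830343 to 17830459 on the minus strand. The locus is inside the protein-coding gene Spaca6, with Mir99b and Mirlet7e in an intron and Mir125a in an exon of a Spaca6 transcript. Only 94 bases separate Mir99b from Mirlet7e.

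Pup 1 had 2353553 counts on genes and pup 3 had 3217074, taking the own-strand counts of every gene plus the opposite-strand counts of Gm25927. Levels are given in CPM, counts per 1000000 of that total, and means carry the SD over n = 2 pups. The limit set by a count of 0 is 3 counts, which equals 1.27 CPM in pup 1 against 0.933 CPM in pup 3. Intervals are exact (Clopper-Pearson) 95% binomial intervals, and both they and the floor cover counting error only. Of 11 neuron-enriched hairpins fixed as tissue markers, 10 had a row of their own and 7 of these reached 10 counts in both libraries, led by Mir137. Mir124a-2, Mir124a-3 and Mir9-2 did not reach that minimum in both. Each has further copies in the list, and reads that map to several places enter no gene. Whether these copies share a mature sequence was not searched, so their low counts do not give the level of the microRNA. Of the erythroid pair, Mir451a had 85.8 CPM in pup 1 against 30.8 CPM in pup 3, and Mir144 had 19.97 CPM in pup 1 against 28.9 CPM in pup 3. The leukocyte hairpins Mir150 and Mir223 summed to 424 CPM in pup 1 against 379 CPM in pup 3, more than Mirlet7a-2 in both. Mir142 of the same list has no row of its own and is outside that sum. On the opposite strand of Mir142b it had 251 CPM in pup 1 against 289 CPM in pup 3. The mural hairpins Mir143 and Mir145a summed to 7163 CPM in pup 1 against 7075 CPM in pup 3. The hepatocyte hairpin Mir122 had 58.2 CPM in pup 1 against 47.6 CPM in pup 3. In the striated muscle list Mir206 had 19.5 CPM in pup 1 against 19.6 CPM in pup 3, and Mir1a-1 was at 0. The epithelial list summed to 94.3 CPM in pup 1 against 589.98 CPM in pup 3, and the part of these lists in the differences between the pups was not tested.

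The 9 hairpins together held 571883 counts in pup 1 and 675696 in pup 3. That is 24.3% of the counts on genes in pup 1 (24.2 to 24.4%) and 21.003% in pup 3 (20.96 to 21.05%), a mean of 22.7% ± 2.33. The chromosome 16 locus was the largest at 17.6% in pup 1 and 15.3% in pup 3, a mean of 16.5% ± 1.61. The chromosome 17 locus held 3.74% in pup 1 and 3.10% in pup 3, and the chromosome 9 locus 2.94% in pup 1 and 2.56% in pup 3. The order of the loci was the same in both pups, and each locus had a higher share in pup 1. Within the tricistrons, 72.8% ± 0.399 of the counts came from chromosome 16, 15.1% ± 0.447 from chromosome 17 and 12.1% ± 0.0487 from chromosome 9.

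The miR-99/100 hairpins led all 3 loci. Mir99a had 407663 counts in pup 1 and 483500 in pup 3, or 173212 CPM in pup 1 against 150292 CPM in pup 3, a mean of 161752 ± 16207 CPM. It was the most abundant gene in each pup by singly mapped reads. Both of its values lay above those of Mirlet7g, the second gene, at 67405 CPM in pup 1 against 75029 CPM in pup 3. Reads that map to several places enter no gene. Ranks here and below therefore do not give the place of a microRNA made from several hairpins. By distance on the log2 scale over both pups, Mirlet7g was also the gene outside the tricistrons nearest to Mir99a, 1.69 log2 units away.

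Mir100 had 25923 CPM in pup 1 against 22271 CPM in pup 3, a mean of 24097 ± 2582 CPM at rank 8. Its neighbours in rank were Mir137 and Mir149, and the values of each overlapped with those of Mir100 between the pups. Mir149, at 25397 CPM in pup 1 against 21533 CPM in pup 3, was the nearest gene at 0.0569 log2 units, and nothing about control follows from 2 libraries. Mir99b had 21095 CPM in pup 1 against 15900 CPM in pup 3, a mean of 18497 ± 3673 CPM at rank 12. Its range overlapped with that of Mir130a, which ranked just above it and was its nearest gene at 0.461 log2 units, but not with that of Mir181c just below.

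**Figure D1:**
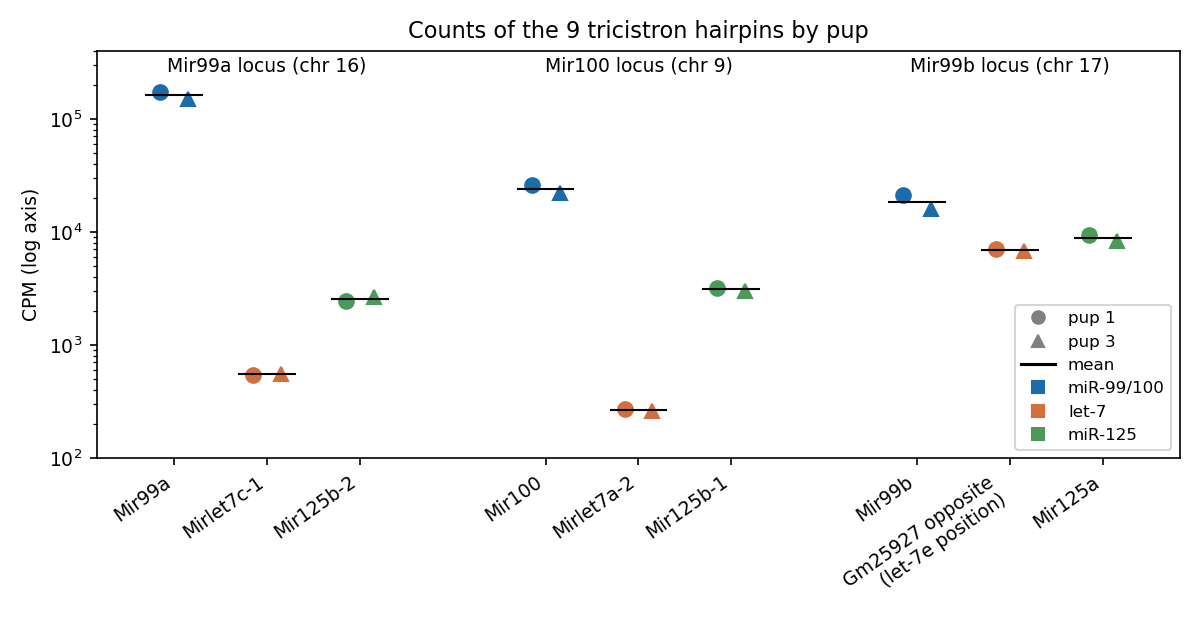
CPM of each hairpin on a log axis, in pup 1 (circles) and pup 3 (triangles), with the mean of both as a line, by locus and coloured by family. The miR-99/100 hairpin stands highest at each locus, and Mirlet7c-1 and Mirlet7a-2 are the lowest of the 9 in both pups.

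Within the miR-99/100 family the 3 members kept a steep order. Mir99a made up 78.7% of the family counts in pup 1 and 79.7% in pup 3, Mir100 11.8% in both and Mir99b 9.58% in pup 1 and 8.44% in pup 3. Mir99a exceeded Mir100 by 6.68-fold in pup 1 (6.63 to 6.74) and 6.75-fold in pup 3 (6.70 to 6.80), intervals that overlap. Against Mir99b, Mir99a was 8.21-fold higher in pup 1 (8.13 to 8.29) and 9.45-fold higher in pup 3 (9.37 to 9.54), intervals that do not overlap. The balance of Mir99a and Mir100, which lie on different chromosomes, was thus closer between the pups than that of either with Mir99b. The values rest on the telling apart of microRNAs that differ by a single base, and how many mismatches the aligner allowed is not given in the sources used here.

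The let-7 members were low in counts at the loci on chromosomes 16 and 9. Mirlet7c-1 had 1271 counts in pup 1 and 1788 in pup 3, or 540 CPM in pup 1 against 556 CPM in pup 3, a mean of 548 ± 11.1 CPM at rank 132. Mirlet7a-2 had 642 counts in pup 1 and 832 in pup 3, or 273 CPM in pup 1 against 259 CPM in pup 3, a mean of 266 ± 10.01 CPM at rank 173, the lowest of the 9 members. Both have a 5p sequence found at a second locus, so a read of the exact let-7c-5p or let-7a-5p maps to more than a single place.

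At the let-7e position of chromosome 17, Gm25927 had 0 counts on its own strand in both pups and 16440 in pup 1 and 21797 in pup 3 on the opposite strand. These were 6985 CPM in pup 1 against 6775 CPM in pup 3, a mean of 6880 ± 148 CPM, which would stand at rank 32. It made up 89.4% ± 0.217 of the let-7 counts of the 3 loci. In counts it was 12.9-fold higher than Mirlet7c-1 in pup 1 (12.2 to 13.7) and 12.2-fold in pup 3 (11.6 to 12.8). None of the other 8 members had a count on its opposite strand in either pup.

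The miR-125 members followed the same division by locus. Mir125a, whose 5p sequence is found in no other annotated hairpin, had 9301 CPM in pup 1 against 8308 CPM in pup 3, a mean of 8805 ± 702 CPM at rank 27. Mir125b-1 had 3202 CPM in pup 1 against 3026 CPM in pup 3, a mean of 3114 ± 124.9 CPM at rank 65. Mir125b-2 had 2456 CPM in pup 1 against 2648 CPM in pup 3, a mean of 2552 ± 136 CPM at rank 70. Mir125a held 60.8% ± 1.95 of the miR-125 counts of the 3 loci. Mir125b-1 exceeded Mir125b-2 by 1.30-fold in pup 1 (1.26 to 1.35) and 1.14-fold in pup 3 (1.11 to 1.18). A read that holds miR-125b-5p and nothing more matches both hairpins.

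Over the 9 members, the order of mean CPM was Mir99a, Mir100, Mir99b, Mir125a, Gm25927, Mir125b-1, Mir125b-2, Mirlet7c-1 and Mirlet7a-2. The values of no 2 neighbours in this order overlapped between the pups. The smallest gap was between Mir125b-1 and Mir125b-2, whose means differ by 1.22-fold. The 5 members with a 5p sequence of their own took the first 5 places, and the 4 with a shared 5p sequence the last 4. How far reads mapping to several places account for that order was not tested. Hairpins are 65 to 96 bases long, and dividing CPM by the length of the hairpin, with that of Mirlet7e for Gm25927, left all 9 in the same places.

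**Figure D2:**
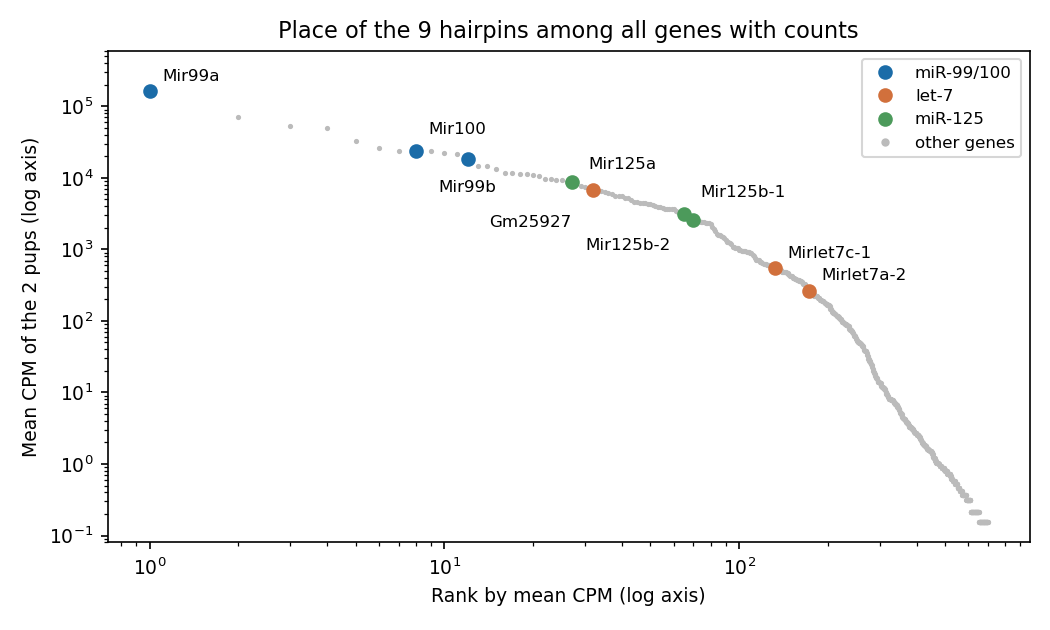
Mean CPM of the pups against rank by mean CPM, both on log axes, for all genes with counts (grey) and the 9 hairpins (coloured by family). Mir99a is at rank 1, Mir100 and Mir99b at ranks 8 and 12, and Mirlet7a-2, the lowest, at rank 173. Ranks are by singly mapped reads only.

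The 3 hairpins of a locus are made from a common transcript, as background, yet their counts were far from equal, and the makeup differed by locus. On chromosome 16, Mir99a took 98.3% of the locus counts in pup 1 (98.26 to 98.34%) and 97.9% in pup 3 (97.87 to 97.95%). Mir125b-2 took 1.39% in pup 1 and 1.73% in pup 3, and Mirlet7c-1 0.306% in pup 1 and 0.362% in pup 3. Mir99a counts exceeded those of Mirlet7c-1, which lies 656 bases farther on, by 321-fold in pup 1 (304 to 339) and 270-fold in pup 3 (258 to 283). The main products of Mirlet7c-1 and Mir125b-2 are each found in a further hairpin, and reads mapping to both places enter no gene. The folds and shares here therefore cover singly mapped reads, and their intervals do not allow for the reads left out. How unequal the true levels of these hairpins are was not tested.

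On chromosome 9, Mir100 took 88.2% of the locus counts in pup 1 (87.9 to 88.4%) and 87.1% in pup 3 (86.9 to 87.4%). Mir125b-1 took 10.9% in pup 1 and 11.8% in pup 3, and Mirlet7a-2 0.928% in pup 1 and 1.01% in pup 3. The pair of hairpins with shared 5p sequences kept a steady balance here, with Mir125b-1 exceeding Mirlet7a-2 by 11.7-fold in each pup (10.8 to 12.7 in pup 1 and 10.9 to 12.6 in pup 3).

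Chromosome 17 is the locus at which none of the hairpins has a 5p sequence found elsewhere in the annotation, and its makeup was the most even. Mir99b took 56.4% of the locus counts in pup 1 (56.1 to 56.8%) and 51.3% in pup 3 (51.0 to 51.6%). Mir125a took 24.9% in pup 1 (24.6 to 25.2%) and 26.8% in pup 3 (26.5 to 27.1%). The let-7e position took 18.7% in pup 1 (18.4 to 18.9%) and 21.9% in pup 3 (21.6 to 22.1%). Mir99b thus exceeded Mir125a by 2.27-fold in pup 1 and 1.91-fold in pup 3, and the let-7e position by 3.02-fold in pup 1 and 2.35-fold in pup 3.

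The order within the locus, miR-99/100 over miR-125 over let-7, was found at all 3 loci in both pups. It is an order of singly mapped reads only. At each locus the share of the miR-99/100 hairpin was higher in pup 1, and those of the let-7 and miR-125 hairpins were lower in pup 1. These shares are within a library, so they do not depend on how the libraries are scaled. The intervals of the pups did not overlap for any member except Mirlet7a-2, whose share had an interval of 0.858 to 1.00% in pup 1 and 0.945 to 1.08% in pup 3. Shares of a locus add up to the whole, so the higher share of 1 hairpin sets lower shares of the others.

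**Figure D3:**
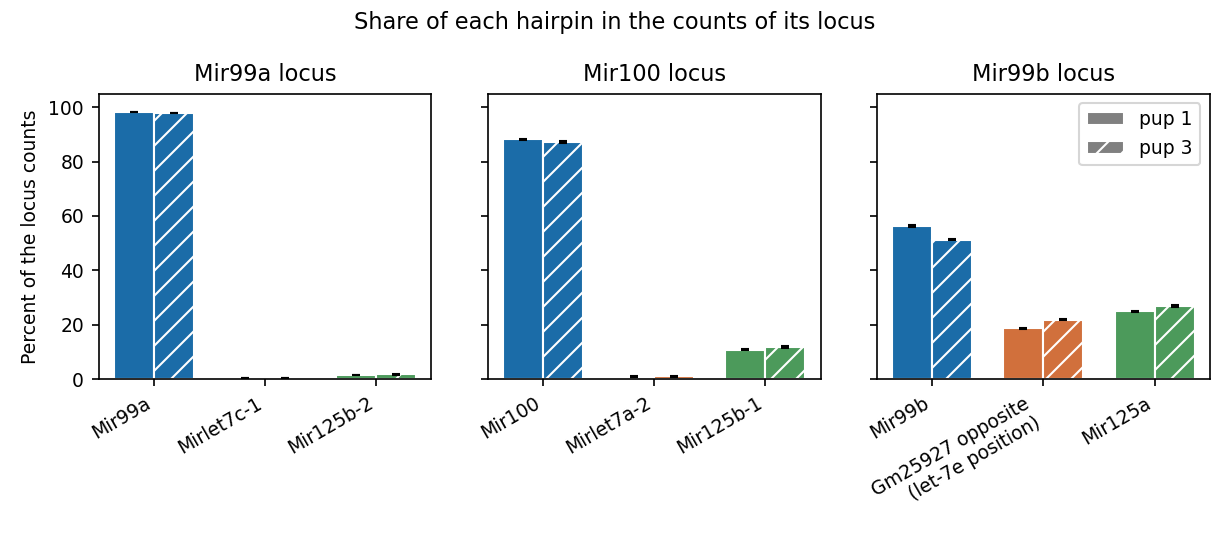
Percent of the counts of each locus held by each of its hairpins, in pup 1 (plain bars) and pup 3 (hatched bars), with exact 95% binomial intervals as error bars. Mir99a and Mir100 hold over 87% of their loci, and Mir99b holds 56.4% in pup 1 and 51.3% in pup 3.

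Across the 3 loci the miR-99/100 family held 90.6% of the tricistron counts in pup 1 (90.56 to 90.71%) and 89.7% in pup 3 (89.66 to 89.80%). The miR-125 family held 6.16% in pup 1 and 6.66% in pup 3, and the let-7 family 3.21% in pup 1 and 3.61% in pup 3. As a share of all counts on genes, miR-99/100 had a mean of 20.4% ± 2.25, miR-125 of 1.45% ± 0.0692 and let-7 of 0.769% ± 0.0147. Each family had a higher share in pup 1, with miR-99/100 at 22.0% in pup 1 and 18.8% in pup 3. The miR-125 and let-7 shares are too small for their gaps in percentage points to be compared with that of miR-99/100. All of these family shares cover singly mapped reads, and their intervals do not allow for the reads left out.

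The same seeds also occur outside these loci, which sets how much of each seed the tricistrons supply. No further mature microRNA of the RefSeq table has the miR-99/100 seed, so Mir99a, Mir100 and Mir99b are its whole supply there. The miR-125 seed occurs in 3 further hairpins. Of these Mir351, an X-linked hairpin of the mouse, had 838 CPM in pup 1 against 606 CPM in pup 3, and Mir6394 and Mir6367 had 0 counts in both. The 3 miR-125 members therefore held 94.7% of the counts on hairpins with this seed in pup 1 (94.5 to 94.9%) and 95.8% in pup 3 (95.7 to 96.0%).

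For the let-7 seed the division was the reverse. It occurs in 11 further hairpins, and the 3 let-7 members of the tricistrons held 6.02% of the seed counts in pup 1 (5.94 to 6.10%) and 5.79% in pup 3 (5.72 to 5.87%). Mirlet7g alone reached 71217 ± 5391 CPM and Mirlet7i 26270 ± 3703 CPM, while Mir1961 and Mir7k had 0 counts. Mirlet7f-1 has no row of its own, and the 311 opposite-strand counts of Gm24111 in pup 1 and 369 in pup 3 stand for it in the seed counts. Mirlet7f-2 had 2920 CPM in pup 1 against 2857 CPM in pup 3. Whether Mirlet7f-1 and Mirlet7f-2 share a mature sequence was not searched, so reads that map to both may also be left out. Among the further let-7 hairpins, the partners with the same 5p sequence were also low. Mirlet7c-2 had 998 CPM in pup 1 against 1071 CPM in pup 3, or 1.85-fold the counts of Mirlet7c-1 in pup 1 and 1.93-fold in pup 3. Mirlet7a-1 had 354 CPM in pup 1 against 380 CPM in pup 3, or 1.30-fold the counts of Mirlet7a-2 in pup 1 and 1.47-fold in pup 3. Reads of let-7c and let-7a that map to both partners are in none of these values, so the supply of the let-7 seed is a lower count. The same holds for reads of miR-125b that map to both of its hairpins. The seed shares given above therefore cover singly mapped reads, and their intervals do not allow for the reads left out.

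**Figure D4:**
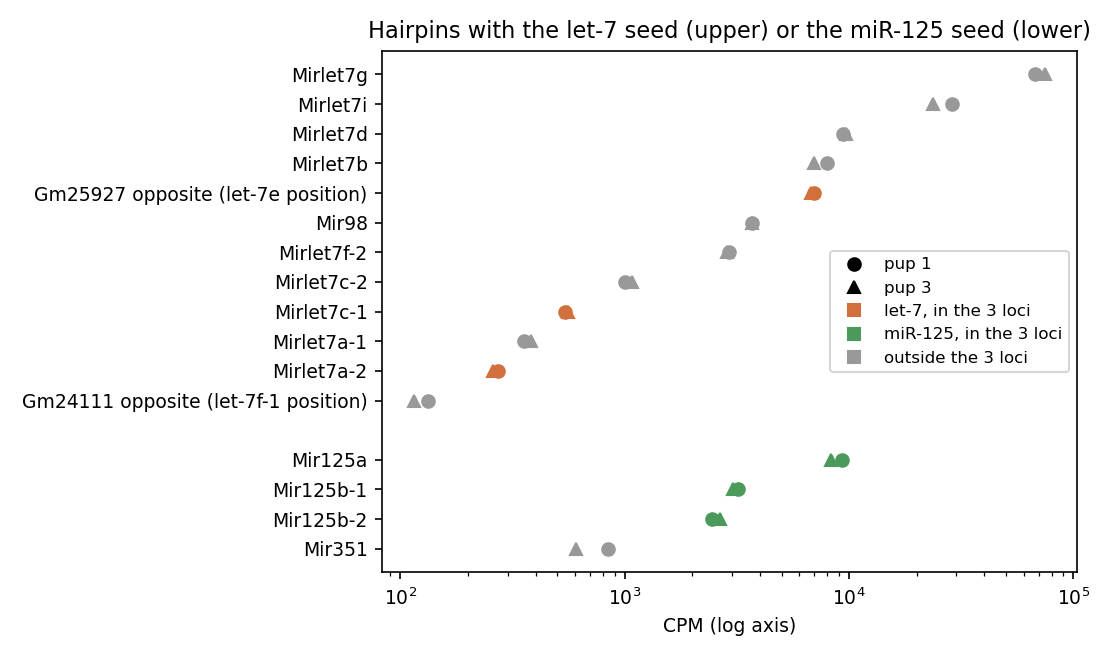
CPM in pup 1 (circles) and pup 3 (triangles) on a log axis for every hairpin with counts that carries the let-7 seed (upper block) or the miR-125 seed (lower block), in order of mean CPM. Members of the 3 loci are coloured and others grey, and the let-7e position is the highest of the coloured let-7 hairpins.

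The miR-10 hairpins, relatives of miR-99/100 with a seed that differs from theirs (ACCCUGU against ACCCGUA), were far lower. Mir10a had 564 CPM in pup 1 against 474 CPM in pup 3, and Mir10b 501 CPM in pup 1 against 404 CPM in pup 3. Both lay below every miR-99/100 member in both pups.

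The pups were compared as pup 1 over pup 3 with TMM scaling, which centres the bulk of genes, with a 95% counting interval. This ratio compares 2 libraries and has no replicate check. Mir99b had the largest ratio of the 9, 1.37-fold (1.35 to 1.39), followed by Mir100 at 1.20-fold (1.19 to 1.21) and Mir99a at 1.19-fold (1.18 to 1.19). Mir125a had 1.16-fold (1.14 to 1.18), Mir125b-1 1.09-fold (1.06 to 1.13) and Gm25927 1.06-fold (1.04 to 1.09). The intervals of Mirlet7a-2 at 1.09-fold (0.981 to 1.21) and Mirlet7c-1 at 1.00-fold (0.933 to 1.08) include 1. Mir125b-2 alone was lower in pup 1, at 0.957-fold (0.926 to 0.990).

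At a threshold of 0.32 on the log2 scale, the smallest of those used, 1 of the 9 members, Mir99b, was higher in pup 1, against 13.6% of the 287 genes whose mean count reached 50, and 0 were lower, against 7.32%. At 1.5-fold 0 members passed in either direction, against 4.53% of genes higher and 2.44% lower, and at 2-fold again 0, against 0.697% higher and 1.05% lower. These shares are near the background, and no difference between the pups is particular to the tricistrons by this count. The ratio was above 1 for 8 of the 9 members, against 47% of the 287 genes, and below 1 for Mir125b-2 alone, against 53%. It was above 1 for 7 of them with plain CPM or either-strand counts, where Mirlet7c-1 was below 1. The median log2 ratio was 0.13 over the members and -0.02 over all genes, and the median absolute log2 ratio was 0.13 over the members and 0.16 over all genes. By family the median log2 ratios were 0.26 for miR-99/100, 0.13 for miR-125 and 0.09 for let-7, over 3 members each. Mir126a, an endothelial marker, held 3.59% of the counts in pup 1 and 2.99% in pup 3, and its part in the ratios was not tested.

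Not all members of a locus shared a single ratio. On chromosome 16 the log2 ratio was 0.25 for Mir99a, against 0.00 for Mirlet7c-1 and -0.06 for Mir125b-2, and the counting intervals of Mirlet7c-1 and Mir125b-2 overlap. On chromosome 9 the log2 ratio was 0.26 for Mir100, 0.12 for Mirlet7a-2 and 0.13 for Mir125b-1. The interval of Mirlet7a-2 overlaps those of both others there. On chromosome 17 the log2 ratio was 0.45 for Mir99b, 0.21 for Mir125a and 0.09 for Gm25927, with counting intervals that do not overlap. The 3 loci have a single ratio order in common, in that the miR-99/100 hairpin had the highest ratio at each.

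**Figure D5:**
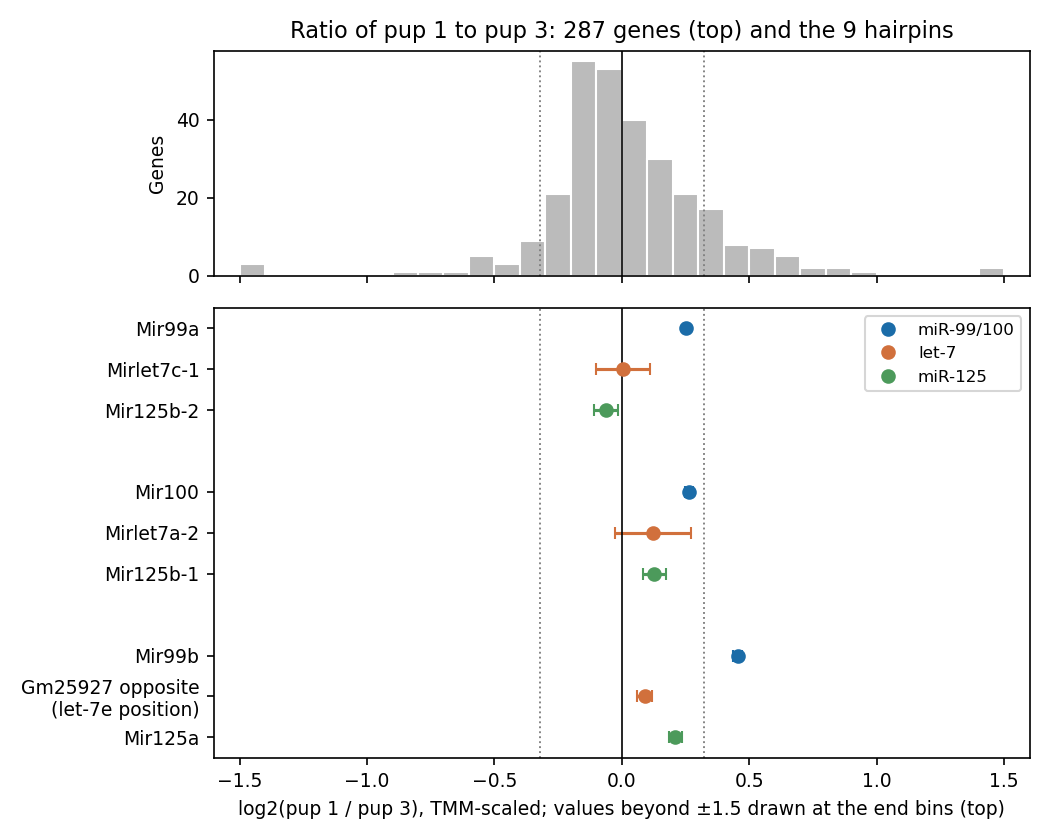
Log2 of pup 1 over pup 3, TMM-scaled, for the 287 genes whose mean count reached 50 (histogram) and for the 9 hairpins with their 95% counting intervals (points). Dotted lines mark 0.32 on the log2 scale, which Mir99b alone of the 9 hairpins passes.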

How the data were processed

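MicroRNA-seq of 2 midbrain libraries was analysed. Raw counts were deposited per gene for either strand, the own strand and the opposite strand, made from alignments to mm10 with the GENCODE M4 annotation, per the deposited file descriptions. The strand of each column was read from the values. Either-strand counts are the sum of the others for every gene, which does not tell those others apart. The column with most gene counts was taken as the own strand. It held 2337113 against 78231 in pup 1 and 3195277 against 112369 in pup 3. Neither aligner nor counter is given in the sources used here. Reads in the files numbered 5461825 for pup 1 and 7382778 for pup 3. A further 4 rows name no gene, held 57.2% of these reads in pup 1 and 56.7% in pup 3 and stayed out of all totals.

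Identifiers were matched without version to GENCODE M21 on GRCm38, and 1894 of 1973 genes had a symbol. Own-strand counts were used, with opposite-strand counts for Gm25927, which were added to the library total. For hairpins without a row of their own that lie opposite a counted gene, Mirlet7f-1 opposite Gm24111 among them, opposite-strand counts were also used, and these were not added to the total. Mature sequences are from RefSeq (GRCm38.p6). Their presence was searched on the sense strand of annotated hairpins only, and a search of the whole genome was not made. Apart from those of Mirlet7e and Gm25927, hairpin sequences are not reported here. Capture of different small RNA sequences was not measured, so levels of different hairpins are compared as counts.

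Ratios used TMM factors (edgeR 4.0.16, R 4.3.3) and a prior count of 0.5, and the calculation was tested on simulated data. With 1 group there was no test between conditions and no p-value. Named genes were the 9 members, hairpins sharing a mature sequence or seed, the other let-7 and miR-10 hairpins, the nearest gene to the leading hairpin of each locus and rank neighbours. Members, lists and thresholds were chosen with earlier results of these data known. Alternatives covered strand, denominator, scaling (DESeq2 1.42.0 size factors, plain CPM), prior count, filters and each pup alone.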

Additional observations from a re-analysis of the deposited data

How the results depend on the processing

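Of the summary values of the 9 members, loci, families and fold counts, those below moved. A share of the members, a locus or a family moved if it differed by more than the SD of the pups. Each of 2 pups always lies within that SD of their mean. By this rule a pup alone could not move a share, so those alternatives are no check on the shares. Fold counts and background shares moved if they differed by more than 1.5-fold or fell to 0. With all reads of the file as denominator, the share was 9.81% for the 9 members and 7.14%, 1.19% and 1.48% for the loci of chromosomes 16, 9 and 17. With reads mapping to several places added to the denominator, an alternative chosen after seeing the data, it was 11.9%. Without Gm25927, the chromosome 17 locus held 2.75%, and the miR-99/100 and let-7 families 93.0% and 0.373% of the tricistron counts. Leaving it out could only lower the shares of its locus and of let-7 and raise that of miR-99/100. Without the 4 hairpins of shared 5p sequence, miR-99/100 held 92.9% and miR-125 4.01%. None of those 4 is a miR-99/100 hairpin, so its share could only rise. Leaving them out does not restore reads that map to several places, so it cannot show what those reads would change. At 1.5-fold, 0 members passed. The background share past 0.32 on the log2 scale in either direction was 28.4% higher and 27.8% lower in pup 1 over the 698 genes with any count, and 12.1% lower in pup 1 over the 373 whose mean count reached 10. The move at 1.5-fold follows from the stricter threshold, and the others from the genes or reads the alternative counts.

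With pup 1 or pup 3 alone, the 9 members held 24.3% or 21.003%, the chromosome 16 locus 17.6% or 15.3%, the chromosome 9 locus 2.94% or 2.56% and the chromosome 17 locus 3.74% or 3.10%. Alone, each pup gave the miR-99/100, let-7 and miR-125 families the shares printed above for it. Plain CPM moved 6 of the 9 ratios beyond their counting intervals, and DESeq2 size factors, a prior count of 5 and either-strand counts moved 0. No paired analysis was possible because the series has 1 group. The depth limits Mirlet7a-2 most, at 642 counts in pup 1, and the mature arm behind a count is not given in the tables.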
